A study of Mus musculus with 17 samples.

Results

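The surfactant and alveolar type 2 genes described here are 10 genes of mouse lung, namely Sftpa1, Sftpb, Sftpc, Sftpd, Abca3, Lamp3, Napsa, Slc34a2, Lpcat1 and Etv5. They were taken by symbol from a table of raw read counts that lists 45777 genes, and their expression was followed over the 6 dose and time groups of the study. All 10 were found, and all 10 were among the 22052 genes that passed the filter on low counts. Every library came from lung tissue of wild-type male C57BL/6 mice, which were obtained at 6 weeks of age and kept for a week before the experiment. The irradiated mice received a single focal dose of 65 Gy or 75 Gy to the left lung from an image-guided small-animal irradiator, and the control mice received none. Tissue was collected after 2 weeks, which the study calls the inflammation stage, or after 6 weeks, its fibrosis stage. Of the 17 libraries, 2 belong to 65 Gy at 6 weeks and 3 to each of the other groups. RNA of the irradiated mice was taken from the lesions, so these samples stand for a focal high-dose injury in 1 lung of 1 strain and sex. The labels do not say that the libraries of a group came from separate animals, and the p-values given here measure the spread between these libraries.

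Alveolar type 2 cells are the secretory cells of the alveolus. They make surfactant, a film of phospholipid and protein that lowers surface tension at the air-liquid boundary, and they store it in lamellar bodies before release. They are also the progenitors that renew the flat alveolar type 1 cells after injury. The surfactant proteins divide by function into the hydrophobic Sftpb and Sftpc, which act in the lipid film, and the collectins Sftpa1 and Sftpd, which bind microbes and lipid and take part in innate defence. Abca3 is the lipid pump of the lamellar body membrane, Lamp3 is a glycoprotein of that membrane, and Napsa is an aspartic protease that takes part in cutting the precursors of Sftpb and Sftpc. Lpcat1 makes the saturated phosphatidylcholine of surfactant, Slc34a2 is a sodium-phosphate transporter of the apical membrane, and Etv5 is an ETS transcription factor downstream of FGF receptor signalling that maintains the type 2 state.

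The libraries held between 46764569 and 66797879 counts on genes. Levels are given as CPM, the counts of a gene per 1e6 counts of its library, for which the total of each library was scaled by its TMM factor. The 10 genes together took between 1.95% and 3.53% of all counts in a library, and Sftpc by itself took between 0.838% and 1.88%. The fewest counts of any of the 10 genes in any library were 9413, for Etv5, so that counting error was small beside the differences between libraries. One library stood apart before any comparison between groups. Control library 3126 of 2 weeks had more Sftpa1, Sftpc, Sftpd and Lamp3 than both other controls of that time, and its summed level of 14 other type 2 marker genes was 17650 CPM against 10190 and 13770 CPM. Much of that sum was Lyz2, which macrophages make too and which ranged from 4593 to 10030 CPM in these controls. Some results that rest on the 2-week controls are therefore also given without it. Of the 75 Gy libraries of 2 weeks, library 3134 had the highest summed level of 8 leukocyte markers, 2639 CPM against 1124 and 1310 CPM, and the lowest of 8 endothelial markers, 1842 CPM against 3350 and 2868 CPM.

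Per kilobase of transcript, Sftpc was the most abundant of the 10 in every group, with a mean of 13470 ± 1017 CPM per kb (SD, n = 3) in the controls of 6 weeks. It was followed there by Sftpb at 2414 ± 168 and Sftpa1 at 1149 ± 50.1 CPM per kb. Slc34a2 at 666 ± 5.01 and Sftpd at 444 ± 23.0 CPM per kb came next. Napsa at 226 ± 14.1 and Lamp3 at 195 ± 2.83 CPM per kb were neighbours, and in the 75 Gy libraries of 6 weeks, at 287 ± 31.0 and 294 ± 15.2 CPM per kb, they differed by less than their spread. Lpcat1 at 134 ± 0.689, Abca3 at 109 ± 4.31 and Etv5 at 70.0 ± 3.82 CPM per kb closed the order. The proteins Sftpc, Sftpb and Sftpa1 thus had the most RNA per length, and the acyltransferase, the lipid pump and the transcription factor the least. The mean of Sftpd was below that of Slc34a2 in the controls of 6 weeks and above it in the other 5 groups. In the controls of 2 weeks, at 736 ± 358 and 723 ± 89.5 CPM per kb (n = 3 each), they differed by less than their spread, and in the 75 Gy libraries of 6 weeks they were 969 ± 124 and 561 ± 137 CPM per kb (n = 3 each).

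**Figure D1:**
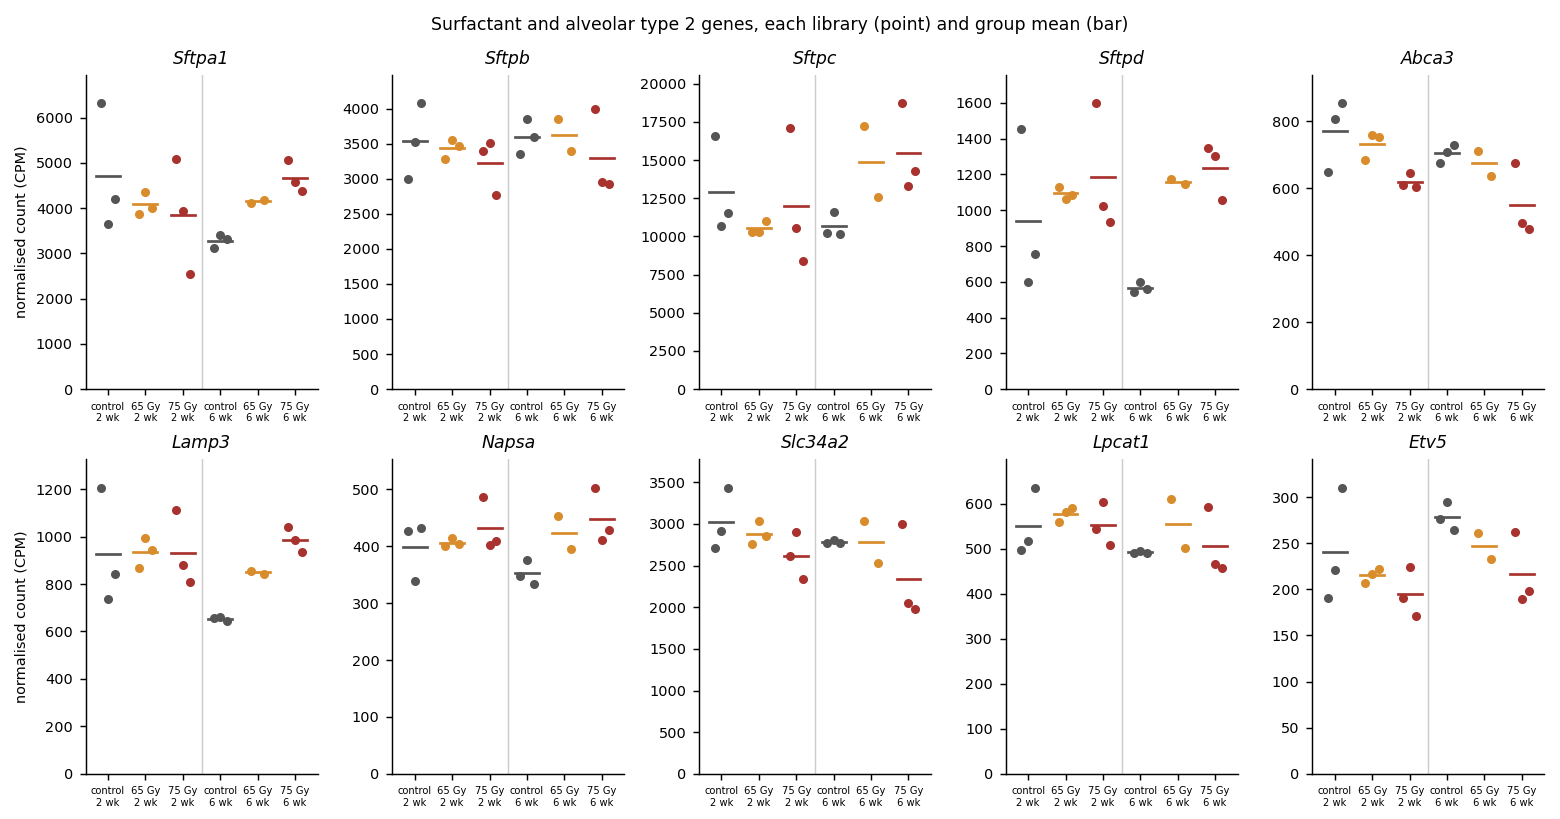
Level of each of the 10 genes in CPM (y axis, linear, starting at 0) in every library (points) of the 6 groups (x axis), with the group mean as a bar and no error bar. At 6 weeks all 5 irradiated libraries lie above the 3 controls for Sftpa1, Sftpc, Sftpd, Lamp3 and Napsa, while Abca3 and Slc34a2 of the 75 Gy libraries reach from below the controls into or above their range. The share of all genes that separate in this way was not counted.

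Positions are given in GRCm38.p6, the build of the files. The collectin genes Sftpa1 (chromosome 14, 41131788 to 41136373, plus strand) and Sftpd (chromosome 14, 41172212 to 41185198, minus strand) are close neighbours, and Sftpc lies on the same chromosome (70520941 to 70524081, minus strand). Lamp3 (19653381 to 19706365) and Etv5 (22381313 to 22439570) are both on the minus strand of chromosome 16. On the plus strands lie Sftpb (chromosome 6, 72304610 to 72314373), Abca3 (chromosome 17, 24351921 to 24410204), Napsa (chromosome 7, 44572445 to 44586846), Slc34a2 (chromosome 5, 53049353 to 53071664) and Lpcat1 (chromosome 13, 73467231 to 73516420). The span of Abca3 overlaps the genes Abca17, Gm25618 and D330041H03Rik, and that of Slc34a2 overlaps Gm17182 by a few bases. Whether strand was used in counting is not given in the sources used here, so the share of such reads is uncertain. Sequences of promoters were matched in RefSeq tables of GRCm38.p6 for 7 of the 10 genes, the others being Sftpc, Sftpd and Napsa. Short motifs were searched on both strands in the 250 bases before the start site. They were the core CTCAAG bound by NKX2-1, present in 13.6% of 27025 promoters of that length, a forkhead motif TGTTTNC, present in 17.9%, and the TATA box TATAAA, present in 13.0%. The promoters of 3 genes are shown because Sftpa1 and Lamp3 varied together across the libraries while Sftpb varied with another set of genes, as described further on. Capitals mark the motif letters, and each runs 5′ to 3′ on the strand of its gene, ending at the base before the start site. They span chr14:41131538-41131787 on the plus strand, chr16:19706366-19706615 on the minus strand and chr6:72304360-72304609 on the plus strand.
Sftpa1 promoter: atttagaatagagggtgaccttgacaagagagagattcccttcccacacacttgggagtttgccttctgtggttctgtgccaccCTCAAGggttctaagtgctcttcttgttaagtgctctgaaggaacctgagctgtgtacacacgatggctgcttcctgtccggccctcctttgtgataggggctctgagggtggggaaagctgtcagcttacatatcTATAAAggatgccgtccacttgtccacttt
Lamp3 promoter: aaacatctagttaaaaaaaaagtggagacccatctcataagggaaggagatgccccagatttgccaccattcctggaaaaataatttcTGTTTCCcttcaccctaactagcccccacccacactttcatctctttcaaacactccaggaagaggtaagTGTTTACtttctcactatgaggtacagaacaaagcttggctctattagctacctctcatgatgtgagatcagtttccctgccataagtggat
Sftpb promoter: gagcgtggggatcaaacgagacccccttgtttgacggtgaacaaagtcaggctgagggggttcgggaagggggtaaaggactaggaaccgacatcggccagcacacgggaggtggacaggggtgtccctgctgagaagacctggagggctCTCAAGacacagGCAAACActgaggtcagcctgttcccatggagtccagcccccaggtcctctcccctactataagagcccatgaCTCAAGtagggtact

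In Sftpa1 the NKX2-1 core lay at -166 to -161 and the TATA box at -30 to -25 from the start site. Lamp3 had the forkhead motif at -162 to -156 and at -92 to -86. Sftpb had the NKX2-1 core at -100 to -95 and at -15 to -10, and the forkhead motif at -88 to -82 on the opposite strand, where it reads GCAAACA. No single motif was shared by all of these promoters, and none of them was found in the same window of Abca3, Slc34a2 or Lpcat1. Etv5 had a forkhead motif at -183 to -177 before its first start site. A match of letters is a description and no evidence that a factor was bound.

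The clearest change concerned the collectin Sftpd. At 6 weeks its controls had 542, 599 and 558 CPM, the 65 Gy libraries 1174 and 1145 CPM and the 75 Gy libraries 1349, 1302 and 1055 CPM. All irradiated libraries lay above all controls, and the groups did not overlap. The log2 fold change was 1.13 with an SE of 0.26 for 75 Gy, a 2.18-fold rise (edgeR quasi-likelihood test, Benjamini-Hochberg adjusted p = 0.00381). For 65 Gy it was 1.03 with an SE of 0.28, a 2.05-fold rise (edgeR, adjusted p = 0.0241). Sftpd was the 1 gene of the 10 that was called at each dose, where called means an adjusted p of at most 0.05 and a change of at least 2-fold. Of all genes tested, 10.4% were called at 75 Gy and 5.28% at 65 Gy, so that 1 of 10 was near the background at either dose. The call at 65 Gy rests on every library of its comparison, since without any single one of the 3 controls or the 2 irradiated libraries the edgeR adjusted p rose to between 0.0569 and 0.138.

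At 2 weeks the libraries of Sftpd overlapped. The controls had 1456, 599 and 758 CPM, the 65 Gy libraries 1132, 1064 and 1086 CPM and the 75 Gy libraries 1599, 1021 and 933 CPM. One control, library 3126, lay above all but 1 of the irradiated libraries, and both other controls lay below all 6. The log2 fold changes were 0.34 with an SE of 0.26 for 75 Gy (edgeR adjusted p = 0.38) and 0.22 with an SE of 0.26 for 65 Gy (edgeR adjusted p = 0.645). Without library 3126 they were 0.82 (edgeR adjusted p = 0.00812) and 0.69 (edgeR adjusted p = 0.0346), and Sftpd then passed at both doses. Other omissions moved the values the other way. Without single libraries the value for 75 Gy was as low as 0.05, and that for 65 Gy was -0.02 without control 3127 (edgeR adjusted p = 0.982). Over the mean of the 4 differences between irradiated groups and their controls, Sftpd was higher by 0.68 on the log2 scale with an SE of 0.16 (edgeR adjusted p = 0.00378).

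Lamp3 and Napsa rose at 6 weeks after 75 Gy, by less than Sftpd. Lamp3, of the lamellar body membrane, had 657, 661 and 643 CPM in the controls, 856 and 844 CPM after 65 Gy and 1039, 985 and 937 CPM after 75 Gy. Its 3 controls lay within a narrow range, both 65 Gy libraries lay above them, and the 75 Gy libraries lay above those. The log2 fold change was 0.59 with an SE of 0.15 for 75 Gy, 1.51-fold (edgeR adjusted p = 0.00751), and 0.38 with an SE of 0.17 for 65 Gy (edgeR adjusted p = 0.148). Napsa, the protease, had 347, 376 and 333 CPM in the controls, 452 and 395 CPM after 65 Gy and 503, 412 and 428 CPM after 75 Gy. Again all 5 irradiated libraries lay above the controls. Its log2 fold change was 0.35 with an SE of 0.11 for 75 Gy, 1.27-fold (edgeR adjusted p = 0.0271), and 0.27 with an SE of 0.13 for 65 Gy (edgeR adjusted p = 0.173). For Napsa at 75 Gy the adjusted p was 0.0752, 0.0955 and 0.133 without control 3135, control 3137 and 75 Gy library 3141, while Lamp3 kept an adjusted p of at most 0.0314 without any 1 library.

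The collectin Sftpa1 and the hydrophobic Sftpc were also higher in every irradiated library of 6 weeks than in every control, and did not pass the test. How many of all genes separated in this way was not counted, so the separation is a description. Sftpa1 had 3121, 3399 and 3319 CPM in the controls, 4125 and 4185 CPM after 65 Gy and 5074, 4569 and 4387 CPM after 75 Gy. Its log2 fold change was 0.51 with an SE of 0.21 for 75 Gy (edgeR adjusted p = 0.0735) and 0.34 with an SE of 0.24 for 65 Gy (edgeR adjusted p = 0.365). Sftpc had 10240, 11600 and 10170 CPM in the controls, 17210 and 12590 CPM after 65 Gy and 18730, 13310 and 14310 CPM after 75 Gy. The levels of Sftpc were thus uneven within the irradiated groups, with 1 library of each dose well above the rest. Its log2 fold change was 0.53 with an SE of 0.23 for 75 Gy (edgeR adjusted p = 0.0881) and 0.48 with an SE of 0.26 for 65 Gy (edgeR adjusted p = 0.233). Where each comparison was fitted on its own 2 groups, both genes passed at both doses, and the edgeR adjusted p of Sftpa1 was then as low as 0.00117 for 75 Gy and 0.00564 for 65 Gy. What share of all genes passed in those fits was not counted.

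Abca3, the lipid pump, moved the other way. It had 674, 710 and 730 CPM in the controls of 6 weeks, 711 and 637 CPM after 65 Gy and 676, 497 and 479 CPM after 75 Gy. The 75 Gy library 3141 lay within the range of the controls and the other two lay below it. The gene fell by 0.36 on the log2 scale after 75 Gy with an SE of 0.13, to 0.782 of the controls (edgeR adjusted p = 0.0418), and after 65 Gy its log2 fold change was -0.06 with an SE of 0.14 (edgeR adjusted p = 0.821). Abca3 did not pass under upper-quartile factors, library totals, no filter or the 2 groups alone. Nor did it pass without any 1 of the libraries 3130, 3131, 3135, 3136, 3137, 3142 and 3143. In these fits its edgeR adjusted p lay between 0.0522 and 0.2, and scaled to epithelial genes it was 0.287. Without library 3141 the log2 fold change of Abca3 was -0.54 (edgeR adjusted p = 0.0018). At 2 weeks the controls had 649, 806 and 854 CPM and the 75 Gy libraries 609, 647 and 604 CPM, so that all 75 Gy libraries lay below all controls, with a log2 fold change of -0.31 and an SE of 0.13 (edgeR adjusted p = 0.094). Without control 3126 that value was -0.41 (edgeR adjusted p = 0.0279).

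The other four genes did not pass in any irradiated group in the fit of all libraries. Sftpb, of the surfactant film, had 3351, 3852 and 3590 CPM in the controls of 6 weeks and 4002, 2959 and 2922 CPM after 75 Gy, with a log2 fold change of -0.13 and a 95% interval of -0.43 to 0.18. Slc34a2, the phosphate transporter, had 2766, 2807 and 2776 CPM in those controls and 3000, 2046 and 1982 CPM after 75 Gy, with a log2 fold change of -0.25 and an interval of -0.57 to 0.07. In both genes library 3141 was above all controls and the remaining pair of 75 Gy libraries was below them. Lpcat1, the acyltransferase, had 491, 494 and 489 CPM against 593, 467 and 456 CPM, with a log2 fold change of 0.04 and an interval of -0.22 to 0.30. Etv5 had 276, 295 and 265 CPM in the controls and 262, 190 and 198 CPM after 75 Gy, all of the latter below all controls, with a log2 fold change of -0.36 and an interval of -0.71 to -0.02 (edgeR adjusted p = 0.0926). Without library 3141 both Slc34a2, at -0.47 (edgeR adjusted p = 0.0092), and Etv5, at -0.53 (edgeR adjusted p = 0.0196), passed. Etv5 also passed without control 3128 of 2 weeks (edgeR adjusted p = 0.0394) and on the 2 groups alone (edgeR adjusted p = 0.0435). After 65 Gy at 6 weeks the log2 fold changes of these 4 genes lay between -0.17 for Etv5 and 0.18 for Lpcat1.

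**Figure D2:**
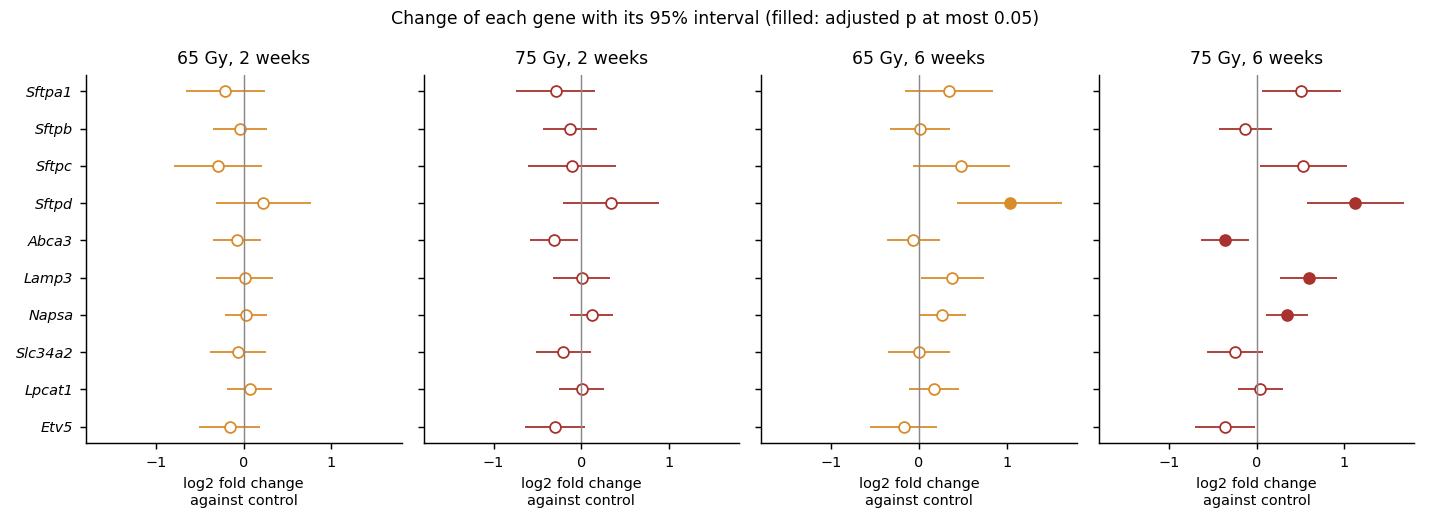
Log2 fold change against the controls of the same time (x axis) for each of the 10 genes (y axis) at 65 Gy and 75 Gy and at 2 and 6 weeks, with 95% intervals as lines and filled points where the adjusted p was at most 0.05. Filled points are found only at 6 weeks, for Sftpd at both doses and for Lamp3, Napsa and Abca3 at 75 Gy; both doses share the controls of their time.

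Counted by group of samples, 3 of the 10 genes rose and 1 fell at 75 Gy and 6 weeks by an adjusted p of at most 0.05 alone, where 18% of all genes tested rose and 18% fell. At 65 Gy and 6 weeks 1 rose and 0 fell, against 7.66% and 7.01% of all genes. At 2 weeks 0 of 10 rose or fell and 0 were called at either dose by edgeR, DESeq2 or the exact test of edgeR. One gene at 75 Gy and 0 at 65 Gy had an unadjusted p under 0.05 in the edgeR quasi-likelihood test. Of all genes, 11.8% rose, 10.5% fell and 7.74% were called at 75 Gy and 2 weeks, and 6.7% rose, 4.29% fell and 4.35% were called at 65 Gy and 2 weeks. Their median log2 fold change was -0.12 and -0.05 at 2 weeks and 0.19 and 0.22 at 6 weeks, for 75 Gy and 65 Gy in this order, where that of all genes was within 0.04 of 0. Both doses were compared with the same controls, and their values are not independent. Over the mean of the 4 differences 2 genes passed, Sftpd and Napsa, where 41.6% of all genes did. Without control 3126 there were 5, namely Sftpd, Abca3, Lamp3, Napsa and Etv5, and the share of all genes was not counted for that fit.

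No difference between the doses passed for these genes. Between 75 Gy and 65 Gy 0 of 10 genes passed at either time by edgeR, DESeq2 or the exact test, 0 had an unadjusted p under 0.05 at either time, and 0% of all genes passed. At 6 weeks Sftpd differed by 0.09 on the log2 scale between the doses with an interval of -0.52 to 0.70, and Lamp3 by 0.22 with an interval of -0.15 to 0.58. The largest difference was that of Abca3, which was lower after 75 Gy by -0.29 with an interval of -0.59 to 0.01 (edgeR adjusted p = 0.735). For Sftpd the interval did not reach the change of 1.03 or 1.13 seen against the controls.

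Nor did the effect of a dose differ between the times by the test of that difference. For 75 Gy the effect at 6 weeks minus that at 2 weeks was 0.81 for Sftpa1 with an SE of 0.30, 0.79 for Sftpd with an SE of 0.36 and 0.59 for Lamp3 with an SE of 0.22, on the log2 scale. These 3 genes had an unadjusted p under 0.05, and 0 of 10 passed after adjustment by edgeR or DESeq2, with an edgeR adjusted p of 0.226, 0.302 and 0.221 and 0.299% of all genes passing. For 65 Gy the difference was 0.77 for Sftpc, the 1 gene with an unadjusted p under 0.05, and 0 of 10 passed by either tool, as did 0.0136% of all genes. The controls themselves also differed between the times, although no difference passed by edgeR. From 2 to 6 weeks Lamp3 had a log2 fold change of -0.51 with an SE of 0.15 (edgeR adjusted p = 0.121), Sftpd of -0.73 with an SE of 0.26 (edgeR adjusted p = 0.186) and Sftpa1 of -0.53 with an SE of 0.21 (edgeR adjusted p = 0.252). All 3 controls of 6 weeks lay below all 3 of 2 weeks for each of these genes, and 3 genes had an unadjusted p under 0.05. For Sftpd the gap was small, from 598.9 CPM in control 3136 of 6 weeks to 599.3 CPM in control 3127 of 2 weeks. Control 3126 had 1456 CPM, and the differences between the times are not given without it. By edgeR and its exact test 0 of 10 passed, by DESeq2 1 did, Lamp3, and 1.63% of all genes passed.

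The spread within groups had a structure of its own. In the controls of 2 weeks the CV of Sftpd was 48.6% and that of Sftpa1 30.0%, against 5.18% and 4.36% in the controls of 6 weeks. When the log2 CPM of each gene was taken as a deviation from the mean of its group, the 10 genes fell into a pair of sets of 5, which were chosen after their values were seen. Within the set of Sftpa1, Sftpc, Sftpd, Lamp3 and Napsa the 10 pairs had a Pearson r between 0.595 and 0.95 over the 17 libraries, with a median of 0.81. Within the set of Sftpb, Abca3, Slc34a2, Lpcat1 and Etv5 the 10 pairs lay between 0.819 and 0.958, with a median of 0.904. Between the sets the 25 pairs lay between -0.311 and 0.522, with a median of 0.076. Genes of 1 set were thus high or low in the same libraries, also where the libraries belonged to 1 group. Most genes of one set gave little of the other. Napsa stood between the sets, with an r of 0.522 with Slc34a2 and with Lpcat1, 0.482 with Sftpb, 0.427 with Etv5 and 0.284 with Abca3. Values of a library share its depth and scaling factor, so these correlations are a description.

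**Figure D3:**
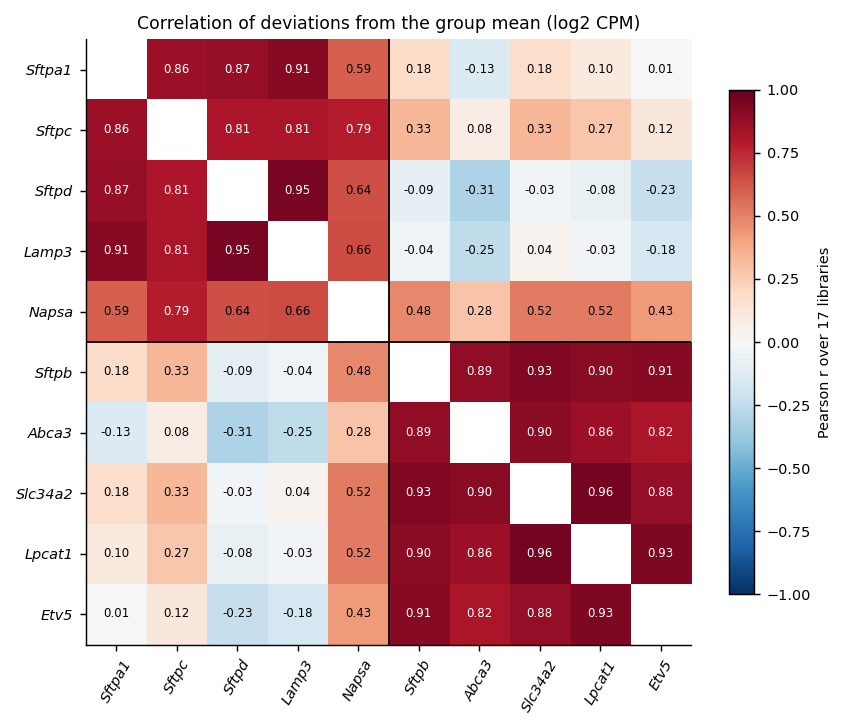
Pearson r between each pair of the 10 genes (both axes) over 17 libraries, from log2 CPM as deviations from the group mean, with the value printed in each cell and colour from blue (-1) to red (1). The upper left and lower right blocks, within the sets named in the text, hold values of at least 0.595, and the blocks between them hold values from -0.31 to 0.52.

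The libraries that carry this pattern can be named. Control 3126 had the most Sftpa1 of all 17 libraries, 6324 CPM against 3643 and 4197 CPM in its group, and the least Sftpb of its group, 2998 against 3525 and 4079 CPM. Its Etv5 was 191 CPM against 221 and 310 CPM. At 75 Gy and 2 weeks Sftpc was 17090 CPM in library 3132, 10520 CPM in library 3133 and 8368 CPM in library 3134. In the 75 Gy libraries of 6 weeks, on the other hand, library 3141 was highest for all 10 genes. The first set, of the collectins, Sftpc, Lamp3 and Napsa, also held the genes that were higher in every library at 75 Gy and 6 weeks. Those of the other set, Sftpb, the lipid and phosphate transporters, the acyltransferase and Etv5, were not. At 65 Gy and 6 weeks, however, Lpcat1 of the other set lay above all controls too, with 609.1 and 500.5 CPM against 489.2 to 494.2 CPM. The match at 75 Gy was no separate test, since the same libraries enter both. The promoters shown above come from both sets, Sftpa1 and Lamp3 from the first and Sftpb from the second.

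Changes in the cell make-up of the tissue and changes of RNA per cell cannot be told apart in bulk samples, and the levels of other cell markers are given for that reason. The epithelial gene Epcam did not pass in any group in the fit of all libraries, with 59.9, 70.2 and 70.0 CPM in the controls of 6 weeks, 68.2 and 65.7 CPM after 65 Gy and 63.7, 72.3 and 74.1 CPM after 75 Gy, and a log2 fold change of 0.07 with an interval of -0.14 to 0.28 at 75 Gy. The summed level of 8 genes found in all lung epithelium lay between 979 and 1038 CPM in the controls of 6 weeks and between 852 and 928 CPM after 75 Gy. Taken as a ratio to that sum, Sftpd was between 0.549 and 0.577 in the controls of 6 weeks, 1.18 and 1.21 after 65 Gy and between 1.14 and 1.53 after 75 Gy. The groups did not overlap on this scale either. The summed level of 8 endothelial markers went down from between 4648 and 4777 CPM to between 1890 and 2349 CPM at 75 Gy and 6 weeks, and 8 of 8 fell. That of 8 leukocyte markers was between 622 and 888 CPM in the controls and between 1451 and 1471 CPM after 75 Gy. Of these markers 3 of 8 rose and 1 fell, where 18% of all genes rose and 18% fell. None of these markers was at 0, and their part in the levels of the 10 genes was not tested.

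Several transcription factors of the type 2 programme were lower after irradiation. Of 8 factors 0 rose in any group, while 5 fell for 75 Gy after 6 weeks, 4 for 75 Gy after 2 weeks, 1 for 65 Gy after 6 weeks and 0 for 65 Gy after 2 weeks. Their median log2 fold change was -0.45, -0.43, -0.24 and -0.25 in this order, and of all genes tested 18%, 10.5%, 7.01% and 4.29% fell. For 75 Gy after 2 weeks 2 of the factors fell without control 3128, 1 without library 3134 and 0 on the 2 groups alone. The cells in which the factors were lower cannot be told from bulk samples. Nkx2-1, the homeodomain factor that drives surfactant genes, had 204, 221 and 217 CPM in the controls of 6 weeks and 204, 155 and 152 CPM after 75 Gy, and fell by 0.33 on the log2 scale (edgeR adjusted p = 0.0411). Library 3141 was level with the lowest of these controls and the other two lay below. At 2 weeks all irradiated libraries lay below all controls, and after 75 Gy it fell by 0.46 (edgeR adjusted p = 0.0121). At 6 weeks Nkx2-1 did not pass under upper-quartile factors, library totals, no filter or the epithelial scale. Nor did it pass there without any 1 of the libraries 3130, 3131, 3135, 3136, 3137, 3142 and 3143. In these fits the value lay between -0.36 and -0.14 and the edgeR adjusted p between 0.0518 and 0.327. After 2 weeks Nkx2-1 did not pass on the 2 groups alone (edgeR adjusted p = 0.0984), without control 3128 (0.0514) or without library 3134 (0.053). At 65 Gy its log2 fold changes of -0.30 and -0.20 did not pass. The forkhead factor Foxa2 had log2 fold changes between -0.25 and 0.09 and did not pass in any group. Tfcp2l1, a grainyhead-like factor, had the largest fall of the 8, with 79.6, 90.6 and 81.1 CPM in the controls of 6 weeks, 57.9 and 47.5 CPM after 65 Gy and 50.7, 35.4 and 35.5 CPM after 75 Gy. All irradiated libraries lay below the controls, and its log2 fold change was -1.05 with an SE of 0.19 at 75 Gy (edgeR adjusted p = 0.000714) and -0.67 with an SE of 0.21 at 65 Gy (edgeR adjusted p = 0.0453). At 65 Gy Tfcp2l1 did not pass with library totals, without the filter or without several single libraries, such as control 3136 (edgeR adjusted p = 0.121). Without library 3140, where 1 library of 65 Gy remains, the value was -0.52. At 75 Gy Tfcp2l1 passed throughout, with values between -1.25 and -0.86, so that the change was not always 2-fold. Lower Tfcp2l1 and higher Sftpd, Lamp3 and Napsa were thus measured in the same libraries of 6 weeks.

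Genes of the FGF receptor pathway, to which Etv5 belongs, changed in both directions, and Etv4 was the 1 gene of the list that rose. Fgfr2, the receptor, had 244, 263 and 262 CPM in the controls of 6 weeks, 152 and 171 CPM after 65 Gy and 167, 136 and 134 CPM after 75 Gy. It fell by 0.82 at 75 Gy and by 0.67 at 65 Gy on the log2 scale, and Fgf10, a ligand made by mesenchymal cells, fell in all 4 irradiated groups, by between 0.55 and 0.68. At 65 Gy and 6 weeks the value of Fgfr2 was -0.57 without library 3138, where 1 library of that group remains. In every group but 75 Gy at 6 weeks, Fgf10 did not pass without some single libraries. Its edgeR adjusted p was up to 0.109 for 75 Gy and 0.123 for 65 Gy at 2 weeks, without control 3128. At 65 Gy and 6 weeks it was 0.0644 without control 3136. Etv4, the ETS factor closest to Etv5 in this pathway, went up. It had 25, 25 and 21 counts in the controls of 6 weeks, 100 and 120 counts after 65 Gy and 100, 119 and 157 counts after 75 Gy. The counts of Etv4 were low, and the groups did not overlap at either time. The log2 fold change of Etv4 was 2.43 with an SE of 0.39 at 75 Gy and 6 weeks (edgeR adjusted p = 0.000329) and 2.93 with an SE of 0.42 at 75 Gy and 2 weeks (edgeR adjusted p = 0.000291), and it was 2.18 and 2.67 at 65 Gy. Of the 7 genes of the pathway other than Etv5, 1 rose against 3 that fell for 75 Gy after 6 weeks and 1 against 4 after 2 weeks. For 65 Gy the counts were 1 against 2 and 1 against 3. Of all genes, 18% rose and 18% fell for 75 Gy after 6 weeks, and 11.8% and 10.5% after 2 weeks. For 65 Gy these shares were 7.66% and 7.01% after 6 weeks, and 6.7% and 4.29% after 2 weeks.

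**Figure D4:**
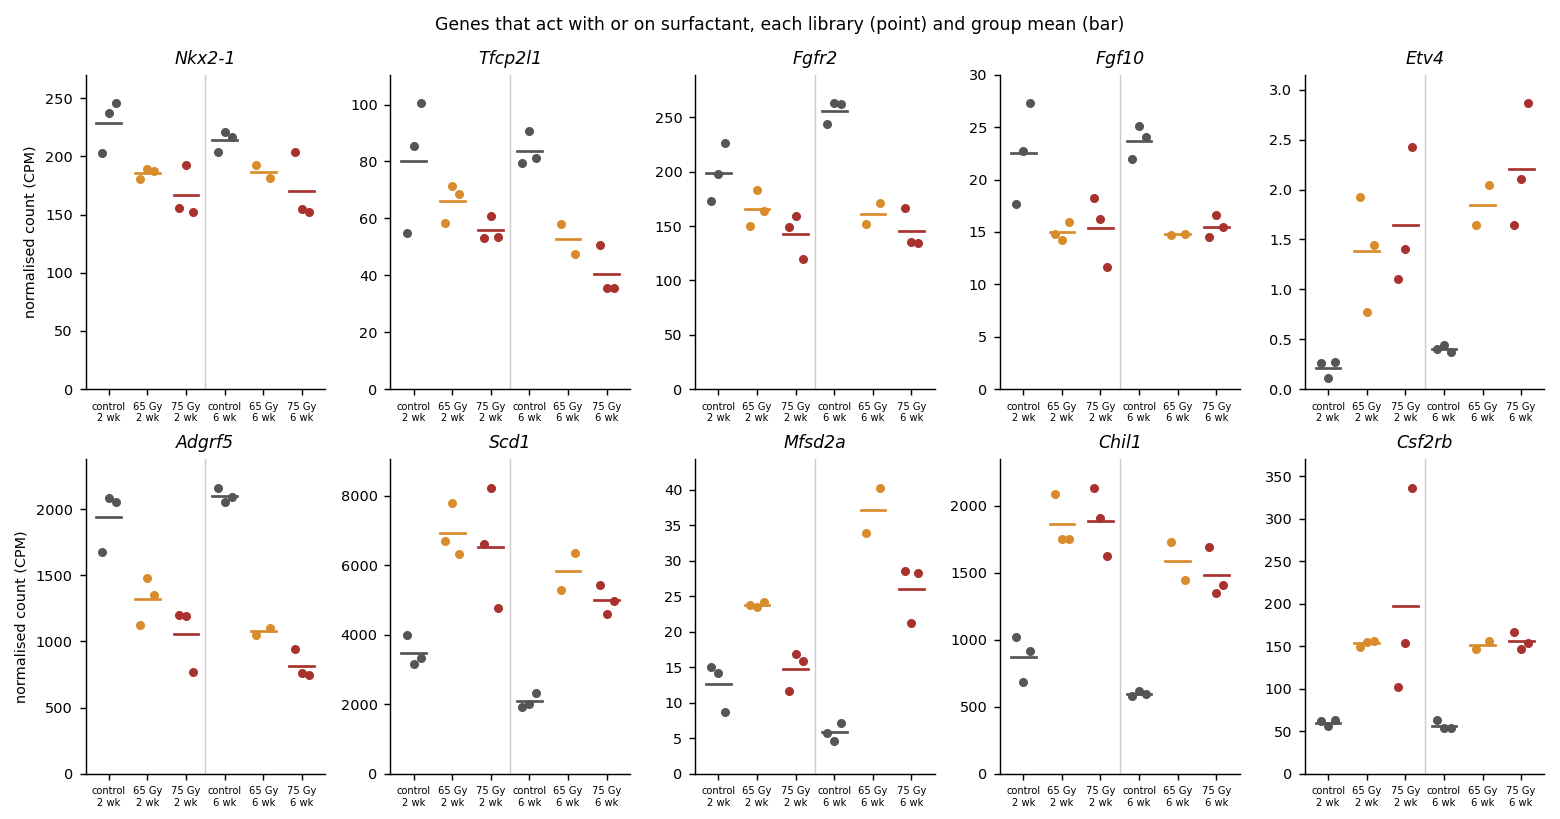
Level in CPM (y axis, linear, starting at 0) of 10 genes that regulate type 2 cells or make, sense or clear surfactant, in every library (points) of the 6 groups (x axis), with the group mean as a bar and no error bar. Nkx2-1, Tfcp2l1, Fgfr2, Fgf10 and Adgrf5 of the irradiated libraries at 6 weeks lie below the controls, and Etv4, Scd1, Mfsd2a, Chil1 and Csf2rb lie above them.

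Of 10 genes that process surfactant proteins or build lamellar bodies, 3 rose and 1 fell after 75 Gy at each time, and after 65 Gy 2 rose and 1 fell at each time. Of all genes 18% rose and 18% fell for 75 Gy after 6 weeks, and 7.66% and 7.01% for 65 Gy. After 2 weeks the shares were 11.8% and 10.5% for 75 Gy, and 6.7% and 4.29% for 65 Gy. The largest change was the fall of Adgrf5, the receptor by which surfactant secretion and pool size are held down, which is also made by endothelium. Adgrf5 had 2160, 2050 and 2094 CPM in the controls of 6 weeks, 1049 and 1105 CPM after 65 Gy and 943, 765 and 744 CPM after 75 Gy. Its log2 fold change was -1.36 with an SE of 0.16 at 75 Gy (edgeR adjusted p = 3.88e-05) and -0.96 with an SE of 0.18 at 65 Gy (edgeR adjusted p = 0.00361), and it fell at 2 weeks too. At 75 Gy and 2 weeks Adgrf5 did not pass on the 2 groups alone (edgeR adjusted p = 0.0618). Nor did it pass at 65 Gy and 2 weeks without several single libraries (edgeR adjusted p of at most 0.156, without library 3129). At 65 Gy and 6 weeks its value was -0.915 without library 3138, where 1 library of that group remains. Adgrf5 was named by a rule, whereas the genes Ctsh, P2ry2, Fgfr2, Fgf10, Chka, Pcyt1a, Prdx6 and Acoxl of these lists were chosen after their values were seen. Ctsh, a cathepsin that cuts the precursors of Sftpb and Sftpc, rose by 0.87 at 75 Gy and by 0.77 at 65 Gy at 6 weeks, the latter with an edgeR adjusted p of 0.0604 without library 3140. P2ry2, the nucleotide receptor that triggers secretion, rose in all 4 irradiated groups, by between 0.52 and 0.75.

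Among 16 genes of lipid synthesis for surfactant a few changed by much, while the medians at 6 weeks were 0.02 for 75 Gy and 0.15 for 65 Gy. After 6 weeks there were 6 that rose against 4 that fell for 75 Gy, and 5 against 1 for 65 Gy. After 2 weeks these counts were 3 against 1 and 3 against 0. For 75 Gy, 18% of all genes rose and 18% fell after 6 weeks, and 11.8% and 10.5% after 2 weeks. For 65 Gy it was 7.66% and 7.01% after 6 weeks, and 6.7% and 4.29% after 2 weeks. Scd1, the desaturase that makes oleate, had 1938, 2009 and 2334 CPM in the controls of 6 weeks, 5295 and 6367 CPM after 65 Gy and 5448, 4602 and 4970 CPM after 75 Gy. Every irradiated library lay above the controls at both times, and Scd1 rose by 1.26 at 75 Gy (edgeR adjusted p = 0.000114) and by 1.48 at 65 Gy (edgeR adjusted p = 0.000178) at 6 weeks. Scd1 is also a main enzyme of fat tissue, of which 5 marker genes had a sum of at most 40.8 CPM in any library. The mean of that sum was 26.9 CPM in the controls of 2 weeks and 6.54 CPM after 75 Gy. At 6 weeks these means were 22.0 and 20.9 CPM. The part of fat tissue in the level of Scd1 was not tested. Mfsd2a, a transporter of lysophosphatidylcholine in type 2 cells and in endothelium, had 5.79, 4.58 and 7.14 CPM in the controls of 6 weeks, 34.0 and 40.3 CPM after 65 Gy and 28.6, 21.3 and 28.2 CPM after 75 Gy. It rose by 2.67 with an SE of 0.23 at 65 Gy (edgeR adjusted p = 5.23e-06) and by 2.16 with an SE of 0.21 at 75 Gy (edgeR adjusted p = 9.42e-06). Among the fallen genes were Chka and Pcyt1a, enzymes of phosphatidylcholine synthesis, by 0.67 and 0.34 at 75 Gy and 6 weeks, and scaled to epithelial genes Pcyt1a did not pass (edgeR adjusted p = 0.159). Lpcat2, the relative of Lpcat1 found mainly in inflammatory cells, rose by 1.5 and 1.09 at 75 Gy at 2 and 6 weeks, while Lpcat1 did not pass in any group. Lpcat2 had 17.6, 28.2 and 69.9 CPM in the 75 Gy libraries of 2 weeks. Without the highest of them, library 3134, its log2 fold change was 0.74 (edgeR adjusted p = 0.0147), and on the 2 groups alone its adjusted p was 0.0901. At 6 weeks its call was lost without any 1 of the libraries 3136, 3137, 3142 and 3143 (edgeR adjusted p of up to 0.0696).

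Genes for the uptake and breakdown of surfactant were mostly higher. Alveolar macrophages clear surfactant under the control of GM-CSF, whose receptor consists of Csf2ra and Csf2rb. Of 8 such genes 7 rose against 1 that fell for 75 Gy after 2 weeks, and 6 against 1 after 6 weeks. For 65 Gy the counts were 5 against 1 and 6 against 0. The shares of all genes that rose and fell for 75 Gy were 11.8% and 10.5% after 2 weeks, and 18% and 18% after 6 weeks. For 65 Gy they were 6.7% and 4.29%, and 7.66% and 7.01%. Csf2rb had 62.9, 53.3 and 53.4 CPM in the controls of 6 weeks and 166, 147 and 154 CPM after 75 Gy, and rose by 1.46 (edgeR adjusted p = 0.00124). Its partner Csf2ra rose by 0.91 (edgeR adjusted p = 0.0138) with no overlap between the groups. Marco, a scavenger receptor of alveolar macrophages, had 22.9, 9.89 and 20.3 CPM in the controls of 2 weeks and 132, 97.2 and 98 CPM after 75 Gy. It rose by 2.62 at that time (edgeR adjusted p = 3.51e-05), and at 6 weeks its log2 fold change was 0.27 (edgeR adjusted p = 0.486). At 65 Gy it rose by 2.43 after 2 weeks (edgeR adjusted p = 0.000123) and by 1.74 after 6 weeks (edgeR adjusted p = 0.00226), where the libraries had 35.8 and 20.3 CPM against 9.81, 7.17 and 8.26 CPM in the controls. Without library 3138 that value was 1.28 (edgeR adjusted p = 0.0613). The gene that fell was Prdx6, a phospholipase and peroxidase that type 2 cells express too, by 0.48 at 75 Gy and 2 weeks, and it did not pass there without control 3127 (edgeR adjusted p = 0.0536) or on the 2 groups alone (0.155). The macrophage markers Cd68, Adgre1 and Mpeg1 rose in all 4 irradiated groups, by between 1.39 and 2.48, and their part in these values was not tested.

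Of 14 other genes used as markers of type 2 cells, 10 rose against 1 that fell for 75 Gy after 6 weeks, and 7 against 1 for 65 Gy, with medians of 0.70 and 0.66. After 2 weeks the counts were 6 against 1 for 75 Gy and 5 against 1 for 65 Gy. Beside them, 18% of all genes rose and 18% fell for 75 Gy after 6 weeks, and 7.66% and 7.01% for 65 Gy. After 2 weeks it was 11.8% and 10.5% for 75 Gy, and 6.7% and 4.29% for 65 Gy. Each count of risen genes includes Dlk1, which had 0 counts in all controls and is described further on. Chil1, a chitinase-like secreted protein, had 580, 615 and 599 CPM in the controls of 6 weeks, 1730 and 1443 CPM after 65 Gy and 1695, 1346 and 1406 CPM after 75 Gy. It rose by 1.31 at 75 Gy (edgeR adjusted p = 2.84e-05) and by 1.41 at 65 Gy (edgeR adjusted p = 8.13e-05), and no irradiated library overlapped the controls. Il33, an alarmin stored in type 2 nuclei, rose by 1.37 at 75 Gy (edgeR adjusted p = 6.91e-05) and by 1.22 at 65 Gy (edgeR adjusted p = 0.000961) at 6 weeks. Lyz2, a lysozyme of type 2 cells and macrophages alike, rose by 1.60 and 1.35 at 6 weeks. Acoxl was the gene that fell in each irradiated group, although at 6 weeks it did not pass at 75 Gy without library 3142 or 3143 or on the epithelial scale (edgeR adjusted p of up to 0.109), nor at 65 Gy without control 3137 or library 3138 or 3140 (up to 0.179). Without library 3138 there were 4 that rose for 65 Gy after 6 weeks, and for 75 Gy after 2 weeks there were 3 without control 3127 and 1 on the 2 groups alone.

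Several genes of the transitional state marked by Krt8, which type 2 cells pass through on the way to type 1 cells, were higher, and several type 1 genes were lower. Krt8 itself overlapped at 2 weeks, with 162 to 219.7 CPM in the controls, 172 to 228.3 CPM after 65 Gy and 165.5 to 259.2 CPM after 75 Gy. At 6 weeks these ranges were 164.2 to 177.1, 228.1 to 248.2 and 247.1 to 326.4 CPM. Krt18 and Krt19 likewise overlapped at 2 weeks and lay above the controls at 6 weeks. Of 10 transitional markers 8 rose and 0 fell at 75 Gy and 6 weeks, 5 rose at 65 Gy and 6 weeks, and 4 rose at each dose at 2 weeks. Cdkn1a, the p53 target that halts the cell cycle, rose by between 2.21 and 2.41 in the 4 groups. Lgals3, a galectin that macrophages also make, rose by between 1.24 and 1.86, and Areg, an EGF receptor ligand, rose by 2.80 at 75 Gy and 1.72 at 65 Gy at 6 weeks and did not pass at 2 weeks. The 65 Gy libraries of 6 weeks had 6.66 and 13.2 CPM of Areg, and its call there was lost without library 3140, at 1.16 (edgeR adjusted p = 0.201), and without control 3136 (edgeR adjusted p = 0.0602). Of 10 type 1 markers 7 fell for 75 Gy after 6 weeks and 6 for 65 Gy, with 0 that rose. After 2 weeks 5 fell for 75 Gy and 2 for 65 Gy, with 1 that rose for each dose. Among all genes tested, 18% rose and 18% fell for 75 Gy after 6 weeks, and 7.66% and 7.01% for 65 Gy. After 2 weeks these shares were 11.8% and 10.5% for 75 Gy, and 6.7% and 4.29% for 65 Gy. The counts of type 1 markers for 65 Gy after 6 weeks and for 75 Gy after 2 weeks depended on the setting, with 0 that fell without library 3138 and 0 on the 2 groups alone, respectively. Rtkn2 had the largest fall of these, by 1.16 at 75 Gy and 6 weeks (edgeR adjusted p = 0.000675). Among the genes of the 10, Sftpd, Lamp3 and Napsa thus rose at 6 weeks alongside transitional markers and beside falling type 1 markers. Of 8 genes found in all lung epithelium 1 rose and 1 fell at 75 Gy and 6 weeks.

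**Figure D5:**
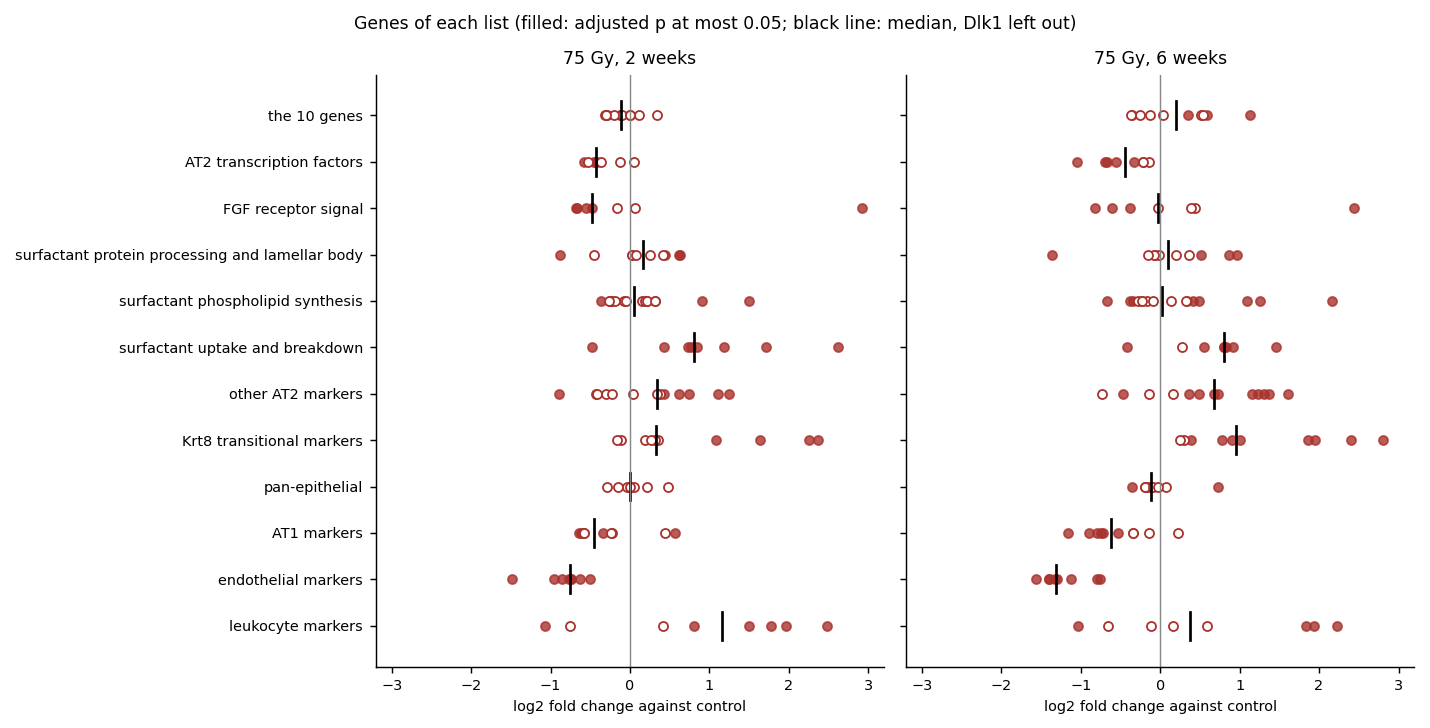
Log2 fold change (x axis) of each gene (points) in 12 lists (y axis) for 75 Gy against controls at 2 weeks (left) and 6 weeks (right), filled where the adjusted p was at most 0.05, with the list median as a black line and Dlk1 left out. Medians of the 10 genes and of epithelial genes lie near 0 at both times, those of transcription factors, type 1 and endothelial markers below it, and those of surfactant uptake, other type 2 and transitional markers above it.

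The genes whose pattern was most like that of the 10 were sought among 11547 other genes whose mean log2 CPM reached 3. Likeness was the Pearson r over the 17 libraries between log2 CPM and the mean of the standardised log2 CPM of the 10 genes. The highest values were those of Mlc1 (0.857) and Insyn1 (0.837), followed by St6galnac2, Mrc2 and Tmem132c (0.756 each), Retsat (0.732), Reep5 (0.731), Hc (0.729), Tmem116 (0.728) and Mid1ip1 (0.726). Mlc1 is a membrane protein best known from astrocytes, and Hc is complement component 5, which was among the 14 type 2 markers. Since the 10 genes formed sets that varied apart, their mean is a blend of both, and these values are a description without a test. Ranked by Spearman's rho, 7 of the 10 remained among the top 10.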

How the data were processed

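Lung RNA of 17 samples was sequenced as stranded poly(A) libraries in paired reads. According to the labels and the study's methods, reads were trimmed with Trimmomatic to a minimum length of 36 bases, aligned to GRCm38.p6 with HISAT2 and assembled with StringTie. The authors deposited raw whole-number counts per gene and library, and the step that made them whole numbers is not given in the sources used here. From these counts, R 4.3.3 and edgeR 4.0.16 kept 22052 of 45777 genes (filterByExpr, minimum count 10, minimum total 15), scaled libraries by TMM and fitted 1 quasi-likelihood model to all 17 libraries, with Benjamini-Hochberg adjustment over all genes tested. Called genes had an adjusted p of at most 0.05 and a change of at least 2-fold. DESeq2 1.42.0, the exact test of edgeR, other scaling factors and filters, fits on the groups compared and fits without each library were alternatives. The sum of 8 epithelial genes served as 1 such scale. Fits were checked on simulated counts. Depth was 46764569 to 66797879 counts per library. The 10 genes and the gene lists were chosen with earlier results of these data known. Of the other lists, up to 3 genes with the smallest p among those called for an irradiated group were named, and Nkx2-1, Foxa2 and Epcam always. A further library of 65 Gy at 6 weeks was not analysed here.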

Additional observations from a re-analysis of the deposited data

How the results depend on the processing

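No paired analysis was possible because the groups share no library number. Groups of 2 or 3 libraries limit the precision, not the depth. Beside leaving out libraries, 393 values kept their direction and side of the threshold, 15 reversed, 15 passed newly and 7 no longer passed. Without single libraries these numbers were 775, 29, 21 and 25. The cause was not tested.

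With only the groups compared, 5 genes passed for 65 Gy at 6 weeks (Sftpa1, Sftpc, Sftpd, Lamp3 and Napsa). The share of all genes that passed was not counted for such fits, for DESeq2 or for fits without single libraries. Counts of passing genes from these fits therefore have no background beside them. Between the controls DESeq2 passed 1. Over the mean of the 4 differences 1 passed with RLE factors, 1 without the filter and 5 with DESeq2. Scaled to epithelial genes, the log2 fold changes reversed to -0.019 for Lamp3 and -0.005 for Lpcat1 (75 Gy, 2 weeks), 0.059 for Sftpb (75 Gy, 6 weeks), and -0.105 for Lamp3, -0.080 for Napsa and -0.028 for Lpcat1 (65 Gy, 2 weeks). That scale moved the median of all genes to 0.224 for 75 Gy at 6 weeks, where 73% of the genes that passed rose against 49.9%, and to -0.107 for 65 Gy at 2 weeks, with 37.2% against 61%. Library totals gave 71.8% there, and 0.007 for Sftpb. For 65 Gy at 6 weeks Slc34a2 reversed to 0.005 with RLE factors and with DESeq2, 0.024 with upper-quartile factors, 0.028 with library totals, 0.053 scaled to epithelial genes, 0.017 without the filter, 0.013 with at least 10 counts in every library and 0.027 with only the groups compared.

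Without single libraries 0 to 2 genes passed for 75 Gy at 2 weeks, 2 to 6 for 75 Gy at 6 weeks, 0 to 1 for 65 Gy at 2 weeks, 0 to 2 for 65 Gy at 6 weeks (0 to 1 called) and 1 to 5 over the mean. The 2 were Sftpd and Lamp3, without control 3135 or 3137, and the 6 came without 75 Gy library 3132 or 3134 of 2 weeks. For 75 Gy at 2 weeks the log2 fold change ranged from -0.461 to 0.127 for Sftpc, -0.15 to 0.25 for Lamp3 and -0.065 to 0.121 for Lpcat1, and at 6 weeks from -0.097 to 0.126 for Lpcat1. For 65 Gy at 2 weeks it ranged from -0.365 to 0.063 for Sftpa1, -0.143 to 0.074 for Sftpb, -0.017 to 0.693 for Sftpd, -0.179 to 0.008 for Abca3, -0.131 to 0.247 for Lamp3, -0.08 to 0.087 for Napsa, -0.135 to 0.037 for Slc34a2 and -0.3 to 0.063 for Etv5. For 65 Gy at 6 weeks it ranged from -0.069 to 0.114 for Sftpb, -0.133 to 0.027 for Abca3 and -0.127 to 0.136 for Slc34a2.

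Over all these alternatives, the counts of related genes ranged as follows. For 75 Gy at 6 weeks 4 to 5 transcription factors and 6 to 8 type 1 markers fell, and 7 to 10 transitional markers, 7 to 10 other type 2 markers, 5 to 6 uptake genes and 2 to 4 processing genes rose, while 3 to 7 lipid synthesis genes rose and 1 to 6 fell, and 0 to 3 FGF pathway genes rose and 2 to 3 fell. For 75 Gy at 2 weeks 0 to 5 transcription factors, 0 to 8 type 1 markers and 1 to 4 FGF pathway genes fell, and 3 to 7 transitional markers, 1 to 7 other type 2 markers, 4 to 7 uptake genes, 1 to 4 processing genes and 0 to 3 lipid synthesis genes rose. For 65 Gy at 6 weeks 0 to 2 transcription factors, 0 to 7 type 1 markers and 0 to 2 FGF pathway genes fell, and 2 to 9 transitional markers, 4 to 10 other type 2 markers, 3 to 7 uptake genes, 1 to 3 processing genes and 3 to 8 lipid synthesis genes rose. For 65 Gy at 2 weeks 0 to 2 transcription factors, 0 to 6 type 1 markers and 0 to 3 FGF pathway genes fell, and 2 to 4 transitional markers, 2 to 6 other type 2 markers, 2 to 5 uptake genes, 1 to 5 processing genes and 2 to 5 lipid synthesis genes rose.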

Other observations

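Among the 14 other type 2 markers, Dlk1, a non-canonical ligand of Notch, was singled out after its values were seen. It had 0 counts in all 6 controls, 11, 15 and 12 counts after 65 Gy and 0, 24 and 20 counts after 75 Gy at 2 weeks, and 46 and 55 counts after 65 Gy and 52, 42 and 46 counts after 75 Gy at 6 weeks. Against a floor of 3 counts per library its level was at least 2.76-fold higher for 65 Gy at 2 weeks, at least 14.2-fold higher for 65 Gy and at least 13.9-fold higher for 75 Gy at 6 weeks. The floor covers counting error only.

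Counts of other cell markers at 75 Gy stood beside 18% of all genes that rose and 18% that fell at 6 weeks, and 11.8% and 10.5% at 2 weeks. Of 6 club cell markers 2 fell and 0 rose at each time, and Cyp2f2, a cytochrome of club cells, fell by 1.24 at 6 weeks. Of 6 ciliated cell markers 3 rose at 6 weeks, 1 without library 3143, and 0 at 2 weeks. Of 8 fibroblast markers 3 rose and 2 fell at 6 weeks, where Lum, a proteoglycan of the matrix, rose by 1.14. Of 5 heart muscle markers 1 fell at 2 weeks and 1 rose at 6 weeks, and of 5 fat markers 1 fell at 2 weeks. At that time 0 of the fat markers were higher, with a median log2 fold change of -2.93 and a range of -3.80 to -1.69. Counts over lists this small are a description.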
